A study of Mus musculus with 8 samples.

Results

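Neural stem cells (NSCs) that carry the S89G form of dentin matrix protein 1 (DMP1) were compared with wild-type (WT) NSCs by RNA sequencing. All genes of the NSC count table were examined in the 3 S89G-DMP1 and the 3 WT columns (Trip1 to Trip3), which are 6 of the 8 samples of the series. The table lists 47729 genes, of which 11194 had enough counts to be tested. Both groups were C57BL/6 cells from the sub-ventricular zone at a labelled age of 10 weeks, grown as neurospheres in DMEM/F12 with N2 supplements. In the S89G-DMP1 group the knock-in allele replaces serine 89 of DMP1, the residue that carries its glycosaminoglycan chain, with glycine in every cell. It was made in C57BL/6J embryonic stem cells, and C57BL/6 mice without the allele were the controls. The sources do not say whether the controls were littermates or whether the triplicates came from separate mice or cultures, so the p-values measure only the spread between these libraries, which may be technical. Genes of the extracellular matrix, the cell cycle and the ribosome are left aside, and the text is about the other gene groups and single genes.

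NSCs of the sub-ventricular zone are astrocyte-like cells that divide and give rise to neuroblasts and glia. Cultured as floating neurospheres with growth factors they form a mixture of stem cells and progenitors at several stages. DMP1 is a secreted acidic phosphoprotein of the SIBLING family, best known from bone and dentin, and its N-terminal part can be made as a chondroitin sulfate proteoglycan.

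Between 2354615 and 2588130 reads were counted on genes per library, and the scaling factors were between 0.999 and 1.001. Expression is given below as CPM, the counts scaled to a common library total. A gene was called higher or lower when the adjusted p of edgeR's quasi-likelihood test across all tested genes was under 0.05, and "rose" and "fell" are used only of called genes. Fold changes are log2 values of S89G-DMP1 over WT with the standard error (SE), and other errors are SD with n = 3 libraries per genotype.

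Dmp1 itself (ENSMUSG00000029307, chr5:104202613-104214102 in GRCm38) was counted 18, 21 and 16 times in the WT libraries and 6, 3 and 5 times in the S89G-DMP1 libraries. The groups did not overlap, and the log2 fold change was -1.90 ± 0.38 (edgeR adjusted p = 1.30e-04). DESeq2 returned no adjusted p for Dmp1, whose counts are low. The counts show lower Dmp1 mRNA in the libraries labelled S89G-DMP1, but they cannot show which base stands at codon 89. Spp1, which encodes osteopontin, another SIBLING protein, was at 48.9, 61.0 and 45.5 CPM in WT NSCs and 29.1, 21.4 and 26.5 CPM in S89G-DMP1 NSCs, a log2 fold change of -1.01 ± 0.13.

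The cells carried the markers of NSCs. Nes, which encodes nestin, was at 2097 ± 97.4 CPM in WT NSCs and 1945 ± 10.7 CPM in S89G-DMP1 NSCs, and Sox2, a transcription factor of neural stem cells, was at 321 ± 5.40 and 345 ± 26.5 CPM. Neither was called, though Nes was called lower by 0.14 on the log2 scale when WT library 1 was left out. Markers of microglia and of vascular, meningeal and ependymal cells were mostly low, but not all of them were the same in both genotypes. Those of the oligodendrocyte lineage summed to between 3952 and 4226 CPM over all 6 libraries, led by Olig1 and Olig2. Astrocyte and neuron markers are given further below. Of 17 microglia markers 11 had no count in any library, and the list summed to between 12.6 and 19.3 CPM in S89G-DMP1 and between 20.6 and 20.8 CPM in WT. Mural cell markers summed to between 78.4 and 92.8 CPM in WT and between 58.6 and 71.6 CPM in S89G-DMP1, without overlap. Of the 13, 3 had no count, and most of the sum came from Mcam and Notch3, the 2 tested. Notch3 was not called, and among the others Tagln had the most counts, at most 7 in any library. The mural marker Mcam, a cell adhesion molecule, fell from 37.9, 33.4 and 39.1 to 16, 18.4 and 20.1 CPM (-1.01 ± 0.15), and DESeq2 called it too. Fibroblast and meningeal markers summed to between 49.3 and 71.9 CPM over all 6 libraries, ependymal and choroid plexus markers to between 19.7 and 27 CPM, and endothelial markers to between 8.39 and 18.1 CPM. Flt1, a VEGF receptor and the 1 endothelial marker tested, was counted 2, 6 and 4 times in WT and 16, 12 and 13 times in S89G-DMP1 and was called higher by edgeR, while DESeq2 returned no adjusted p. The part of such cells in the results below was not tested. Gfap and Aqp4, markers of mature astrocytes, were counted at most 6 and 12 times in any library and were not tested. None of the 25 patterning genes of midbrain, hindbrain and spinal cord had enough counts to be tested, while 13 of 21 forebrain genes did.

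Across all tested genes 792 were called higher (7.08%) and 981 lower (8.76%), together 15.8%, and in 30.7% of tested genes the CPM of the 3 S89G-DMP1 libraries did not overlap with those of the 3 WT libraries. The median log2 fold change was 0.00. Calls of at least 2-fold were fewer, with 49 genes higher (0.438%) and 109 lower (0.974%). Genes of the extracellular matrix, cell cycle and ribosomal families made up 165 of the calls. Of the other 1608 calls, 668 were higher and 940 lower. DESeq2 called 321 genes higher and 424 lower, and 742 of these 745 were also called by edgeR. Calls were unevenly spread over transcript length. From the quintile of shortest to that of longest transcripts, lower calls increased from 121 to 317, and the median log2 fold change went from 0.04 to -0.03. The part of transcript length in the group results below was not tested, and counts from a fit with length and GC content as offsets are given beside each group where a count of at least 5 calls in either fit changed by 1.5 times or more. Counts under 5 in both fits changed by at most 3 calls and are given for some groups only. The plot of level against change places the named genes among all tested genes.

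**Figure D1:**
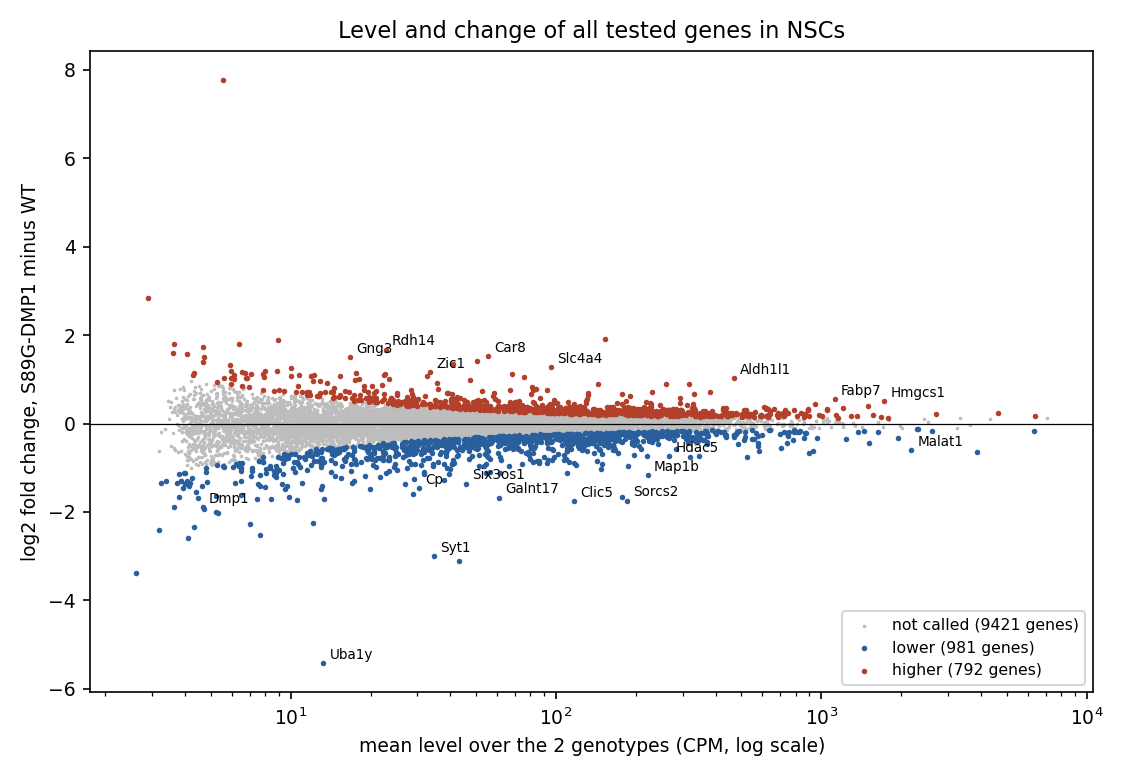
Each point is 1 of the 11194 tested genes. The x axis is the mean level over both genotypes in CPM on a log scale and the y axis the log2 fold change of S89G-DMP1 over WT, with 792 genes called higher in red, 981 called lower in blue and the others in grey. Syt1 and Uba1y stand out below among genes of moderate level, and the unlabelled point beside Syt1 is the matrix gene Hmcn1.

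The genes described next are from the 12 largest increases among called genes that averaged at least 50 counts in the group where they were higher. Rdh14, a retinol dehydrogenase, went from 10.9 ± 0.642 to 34.7 ± 0.727 CPM and Rlbp1, a retinaldehyde-binding protein of glia, from 27.5 ± 2.4 to 73.5 ± 4.88 CPM. Car8, a carbonic anhydrase-related protein that binds the IP3 receptor, rose by 1.52 ± 0.11 and Gng3, a G protein γ subunit, by 1.5 ± 0.21. Slc4a4, a sodium bicarbonate cotransporter of astrocytes, was at 53.5, 61.8 and 53.1 CPM in WT NSCs and 147, 128 and 132 CPM in S89G-DMP1 NSCs (1.27 ± 0.09). They also included Slc15a2, a peptide transporter (1.14 ± 0.19), Zic1, a zinc finger transcription factor (1.15 ± 0.14), Sema3c, a secreted semaphorin (1.09 ± 0.17), Lnx1, a ubiquitin ligase of the Notch regulator Numb (1.08 ± 0.20), Wdfy1 (1.35 ± 0.13) and Tor3a (1.13 ± 0.17). In each of these 11 named genes every S89G-DMP1 library was above every WT library. Over all tested genes 30.7% did not overlap. For genes chosen by their calls, here and below, lack of overlap follows largely from that choice. The topmost point in the plot of level against change is Gm13736 (chr2:87526145-87526397 in GRCm38), a processed pseudogene named after its values were seen. It was counted 27, 26 and 27 times in S89G-DMP1 NSCs and 0 times in all 3 WT libraries, which against a floor of 3 counts per library is at least 9.25-fold higher, though reads of a pseudogene can come from a near-identical copy.

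Among the decreases, by the same minimum of 50 counts, Uba1y, a Y-linked ubiquitin-activating enzyme, was counted 67, 58 and 68 times in WT NSCs but only 3, 1 and 0 times in S89G-DMP1 NSCs. Set against a floor of 3 counts per library, its level was at least 20.9-fold lower in S89G-DMP1 NSCs. Xist, transcribed from the inactive X, was counted between 2718 and 3001 times and Ddx3y, another Y-linked gene, between 45 and 77 times in all 6 libraries, so each library held both Xist and Y-linked RNA. Neither Xist (0.02 ± 0.05) nor Ddx3y (0.04 ± 0.16) was called. Syt1, the calcium sensor of synaptic vesicle release, was at 60.7, 65.7 and 58.3 CPM in WT NSCs and 5.05, 9.42 and 8.42 CPM in S89G-DMP1 NSCs, a log2 fold change of -3.0 ± 0.17. Sorcs2, a sorting receptor for proneurotrophins, went from 268, 298 and 289.9 CPM to 81.3, 92.0 and 83.0 CPM (-1.74 ± 0.07, edgeR adjusted p = 4.60e-30). The groups did not overlap in either gene. Clic5, a protein that links membranes to the actin cortex, fell by 1.75 ± 0.09, and Galnt17, a Golgi enzyme family member of O-glycosylation, by 1.67 ± 0.11. Gmpr, which converts GMP to IMP, was at 29.3 ± 1.85 and 10.6 ± 1.29 CPM, and Cp, the copper ferroxidase ceruloplasmin, at 44.9 ± 4.82 and 16.3 ± 1.88 CPM. Stk32a (-1.71 ± 0.23), the ubiquitin ligase subunit Fbxo32 (-1.37 ± 0.15), the phosphatase Ptpre (-1.34 ± 0.20), the forebrain transcription factor Six3 (-1.30 ± 0.19) and the neighbouring non-coding Six3os1 (-1.36 ± 0.12) completed the 12 largest decreases. The groups did not overlap in any of the 12, which again follows largely from their choice. The strand setting of the counting is not stated, so reads of Six3 and Six3os1 may not be fully told apart.

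**Figure D2:**
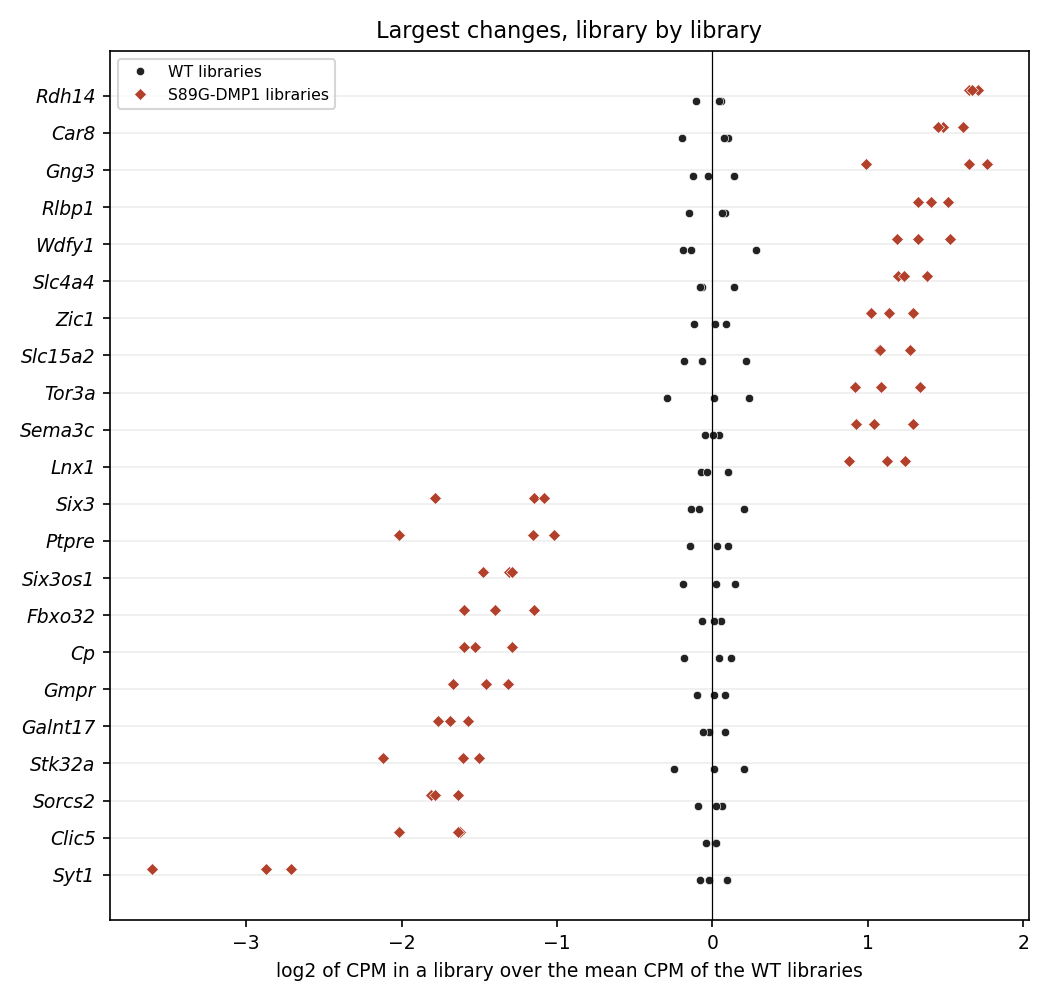
Each row is 1 of 11 genes among the 12 with the largest increases or, below them, 11 of the 12 with the largest decreases (Uba1y, with 1 library at 0 counts, is left out). The x axis is the log2 of the CPM in a library over the mean CPM of the 3 WT libraries, with WT libraries as black circles and S89G-DMP1 libraries as red diamonds. The 2 sets of symbols do not overlap in any row, which follows largely from the choice of called genes with large changes.

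The genes named next were among the 12 with the smallest p in each direction. Their distance from the spread of the libraries follows from that choice. Map1b, a microtubule-associated protein of growing axons, was at 310.2, 314 and 296 CPM in WT NSCs and 136, 142 and 133 CPM in S89G-DMP1 NSCs (-1.17 ± 0.06). Rab3b, a GTPase of vesicle release (-0.97 ± 0.07), Thy1, a neuronal surface glycoprotein (-1.12 ± 0.08), and Gas7, a regulator of neurite outgrowth (-0.92 ± 0.07), fell as well. Igfbp3, which binds insulin-like growth factors, went from 1104 ± 18 to 697 ± 22.3 CPM, and the nuclear non-coding RNA Malat1 fell by 0.61 ± 0.04. On the other side were Kcna2, a voltage-gated potassium channel (0.71 ± 0.06), and Zcchc12, a transcriptional coactivator (1.06 ± 0.10), which rose.

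Among 63 gene groups, sterol biosynthesis, astrocyte markers and tRNA synthetases had the largest shares of members called higher, and IGF and insulin genes, semaphorins and plexins, and transcription factors of neural development the largest shares called lower, among groups with at least 12 tested members. For each group the count of called members is to be read against 7.08% higher and 8.76% lower over all tested genes. The plot of members by group shows the size of the changes and the plot of shares their number.

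**Figure D3:**
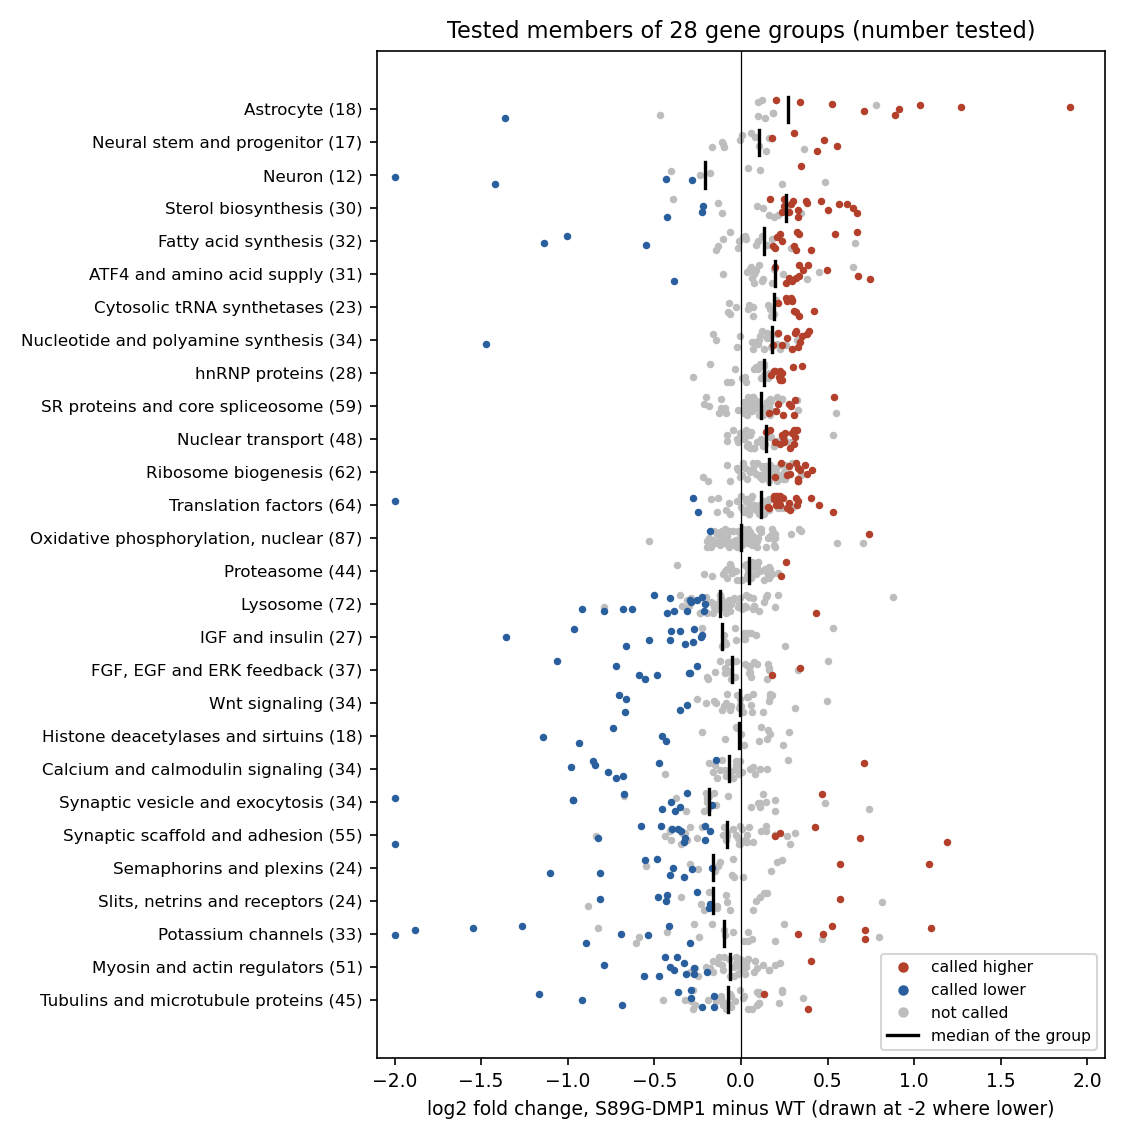
Each point is a tested member of 1 of 28 gene groups, with the number tested in brackets. The x axis is the log2 fold change of S89G-DMP1 over WT, with values under -2 drawn at -2. Red members were called higher, blue called lower and grey not called, and the black bar is the median, which was 0.27 for astrocyte and 0.26 for sterol genes and -0.19 for synaptic vesicle genes.

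**Figure D4:**
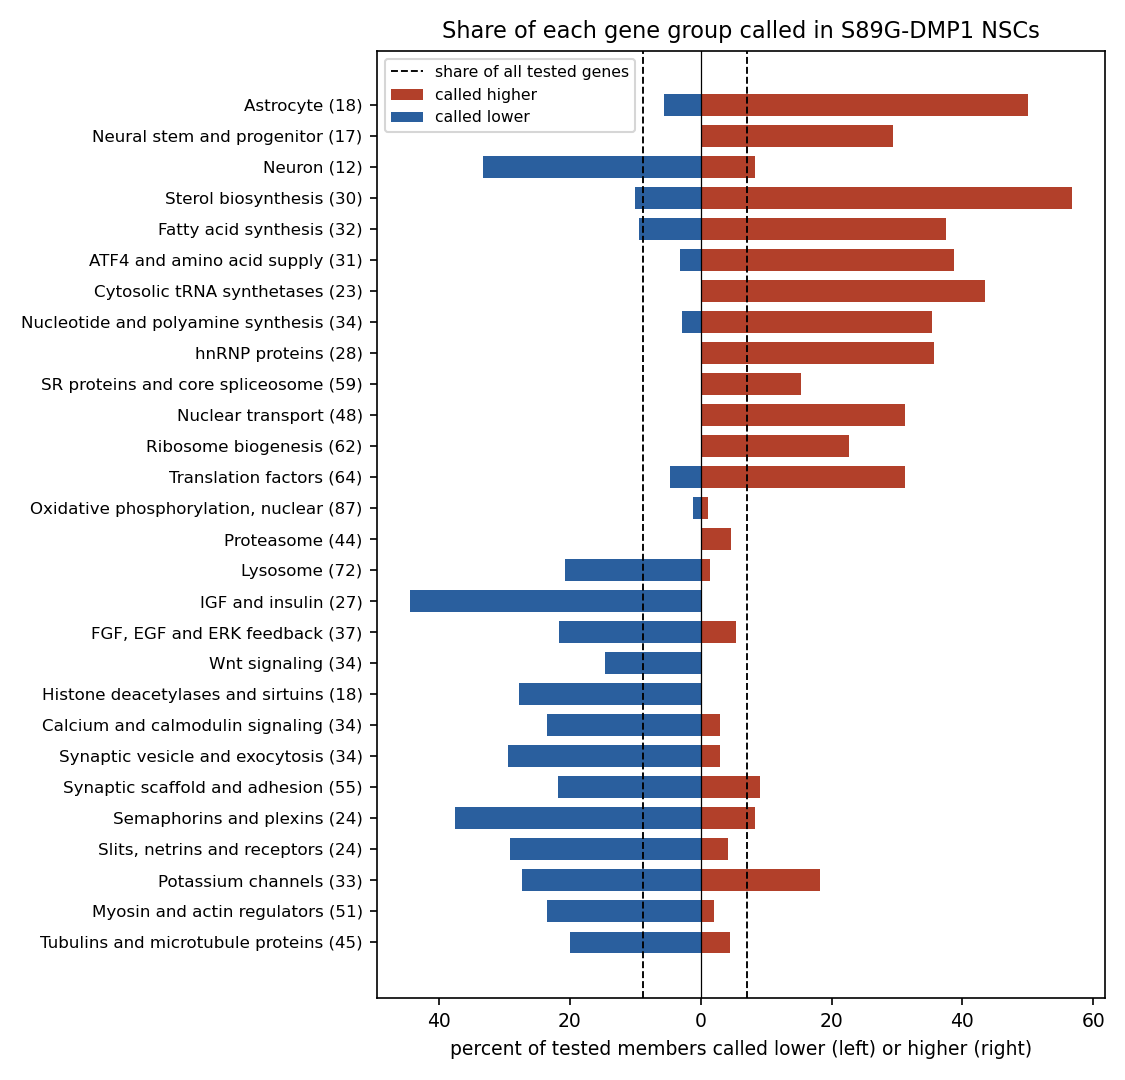
The bars give the percent of the tested members of the same 28 groups that were called higher (red, right) or lower (blue, left) in S89G-DMP1 NSCs. Dashed lines mark the shares over all tested genes, 7.08% higher and 8.76% lower. The longest bar to the right is sterol biosynthesis at 56.7% and the longest to the left IGF and insulin at 44.4%.

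Many genes of the astrocyte lineage rose in S89G-DMP1 NSCs. Of 18 tested astrocyte markers, 9 were called higher and 1 lower, with a median log2 fold change of 0.27 against 0.00 over all tested genes. Their summed level was between 2845 and 2950 CPM in the WT libraries and between 3955 and 3999 CPM in the S89G-DMP1 libraries. More cells of a type and more RNA per cell cannot be told apart in such bulk samples. Aldh1l1, a folate enzyme used as a pan-astrocyte marker, was at 299, 312 and 310.3 CPM in WT NSCs and 627, 630.4 and 631 CPM in S89G-DMP1 NSCs (1.03 ± 0.05, edgeR adjusted p = 5.79e-25). Slc6a11, the GABA transporter GAT-3, rose from 101 ± 3.11 to 187 ± 8.09 CPM, and Gja1, the gap junction protein connexin 43, from 24.6 ± 3.48 to 46.4 ± 7.17 CPM. Mlc1, a membrane protein of astrocyte end feet (0.71 ± 0.06), Kcnj10, the glial potassium channel Kir4.1 (0.52 ± 0.11), Fgfr3 (0.34 ± 0.08) and Slc1a3, the glutamate transporter GLAST (0.20 ± 0.05), rose too. Ndrg2, a stress-responsive protein of mature astrocytes, moved the other way, from 13.5, 10.5 and 16 CPM to 5.05, 8.13 and 2.41 CPM (-1.36 ± 0.28). Slc1a2, the glutamate transporter GLT-1, was at 149 ± 20 and 169 ± 8.44 CPM and was not called, though it passed when WT library 1 or 3 was left out (0.23 and 0.26) and with length and GC offsets (0.22).

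Stem and progenitor markers changed less. Of 17 tested markers, 5 were called higher and 0 lower, with a median of 0.10. DESeq2 called 3 of the 5. Fabp7, the brain lipid-binding protein of radial glia, was at 933, 848 and 949 CPM in WT NSCs and 1272, 1357 and 1384 CPM in S89G-DMP1 NSCs (0.56 ± 0.05). Id3, an inhibitor of bHLH factors, rose by 0.48 ± 0.11 but was not called by DESeq2. The markers' summed level of between 9543 and 9714 CPM in S89G-DMP1 NSCs overlapped with that in WT, between 9189 and 9609 CPM. Of 12 tested neuron markers, 4 were called lower and 1 higher, and DESeq2 called 2 lower. All 28 neuron markers summed to between 2125 and 2298 CPM in WT and between 2010 and 2059 CPM in S89G-DMP1, without overlap. Besides Syt1, the growth cone protein Gap43 (-0.28 ± 0.05) and the RNA-binding protein Elavl3 (-0.43 ± 0.11) fell, the latter not called by DESeq2. In the oligodendrocyte lineage Pdgfra, the receptor of oligodendrocyte precursors, fell (-0.84 ± 0.22) and Ugt8a, a myelin lipid enzyme, rose (1.19 ± 0.32), both called by edgeR but not by DESeq2.

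Transcription factors of neural development, Sox, Pou and Mef2 members included, moved in both directions. Of 32 tested, 6 were called higher and 11 lower. Pou3f3 (0.35 ± 0.06) rose. Zbtb20 also rose (0.45 ± 0.07), and it had the opposite sign in the deposited TPM values. Etv5, an ETS factor driven by FGF signalling, was at 831, 841 and 832 CPM in WT NSCs and 569.9, 587 and 552 CPM in S89G-DMP1 NSCs (-0.55 ± 0.05), and Id2 (-0.58 ± 0.10), Prox1 (-0.52 ± 0.10) and Mef2c (-0.61 ± 0.11) fell.

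Histone deacetylases of class IIa, which shuttle between cytoplasm and nucleus and bind MEF2 factors, fell. Of 18 tested deacetylases and sirtuins, 5 were called lower and none higher, and these were Hdac4, Hdac5, Hdac7 and Hdac9 of class IIa and Hdac6 of class IIb, of which Hdac4 was named after its values were seen. Hdac5 was at 312, 354 and 335 CPM in WT NSCs and 197, 202 and 203 CPM in S89G-DMP1 NSCs (-0.74 ± 0.06). Hdac7 went from 154, 144 and 170.1 to 82.1, 81.7 and 81.0 CPM (-0.94 ± 0.08) and Hdac9 from 44.7, 42.7 and 43.5 to 23.2, 20.5 and 15.6 CPM (-1.14 ± 0.14). The groups did not overlap in any of these 3 genes. Hdac6, a tubulin deacetylase, fell by 0.45 ± 0.11 and Hdac4 by 0.44 ± 0.10, and DESeq2 called all but Hdac6. Among 47 tested genes of DNA methylation, Polycomb and heterochromatin, 8 were called higher and 4 lower. Bmi1, a Polycomb protein needed for stem cell self-renewal (0.49 ± 0.08), and the chromatin protein genes Hmgb1 (0.30 ± 0.06) and Hmgn2 (0.30 ± 0.06) rose, while Gadd45g, which acts in DNA demethylation and stress responses, went from 97.3 ± 6.32 to 51.6 ± 4.78 CPM (-0.92 ± 0.10) and the de novo methyltransferase Dnmt3a fell by 0.28 ± 0.06.

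The IGF and insulin group had 12 of 27 tested members called lower and none higher, with a median of -0.11. Besides Igfbp3 these included Igfbp5 (-0.53 ± 0.15), the receptor Igf2r (-0.40 ± 0.08) that sends IGF2 to the lysosome, and Sesn3 (-0.41 ± 0.06), a nutrient sensor upstream of mTORC1. With length and GC offsets 8 were called lower and 1 higher. DESeq2 called 5 of the 12, not Igfbp5 among these, and 6 were left without S89G-DMP1 library 2 and 7 without S89G-DMP1 library 3. In the group of FGF, EGF and ERK feedback, 2 of 37 were called higher, the receptors Fgfr3 and Egfr (0.18 ± 0.05), and 8 lower, among them Fgfr2 (-1.06 ± 0.26), Fgf1 (-0.72 ± 0.08) and the decoy receptor Fgfrl1 (-0.59 ± 0.13). Immediate early genes, induced within minutes of growth factor or calcium signals, had 4 of 24 called lower and 1 higher, with Fos at 35.4, 39.2 and 40.7 CPM in WT NSCs and 27, 24.0 and 20.5 CPM in S89G-DMP1 NSCs (-0.70 ± 0.14). DESeq2 called 4 of the 8 lower FGF genes, without Fgfr2, and 1 of the 4 lower immediate early genes. Without S89G-DMP1 library 3 the lower FGF genes were 5.

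Genes of other developmental pathways were called in differing numbers. Of 24 Notch genes 3 were called lower and 2 higher. The ligand Jag1 (-0.57 ± 0.10), the γ-secretase subunit Ncstn (-0.49 ± 0.08) and the receptor Notch1 (-0.26 ± 0.06, not called with length and GC offsets) fell, and the glycosyltransferase Lfng, which tunes ligand choice, rose (0.44 ± 0.06). The other increase was that of Nrarp, a feedback inhibitor of Notch signalling named after its values were seen, which edgeR called (1.12 ± 0.29) and DESeq2 did not. Of 34 Wnt genes 5 were called lower and none higher, among them the receptor Fzd1 (-0.35 ± 0.08) and the repressor Tcf7l1 (-0.70 ± 0.20). DESeq2 called 1 of these Wnt genes, and 3 were called without S89G-DMP1 library 3. The BMP group had 3 called higher and 3 lower of 19, with the receptor Bmpr1b (0.67 ± 0.12) up and the procollagen protease Bmp1 (-0.35 ± 0.07) down, and DESeq2 called 1 higher and 2 lower. In the Hippo group 3 of 27 were called higher and 5 lower, among the latter the upstream regulator Wwc1 (-0.68 ± 0.07), the atypical cadherin Dchs1 (-0.61 ± 0.07) and the DNA-binding partner Tead3 (-0.87 ± 0.21), and both DESeq2 and the fit with length and GC offsets called 3 lower. Among 12 Hedgehog genes 1 was called higher, with 0 in DESeq2 and 3 with length and GC offsets.

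Enzymes of cholesterol synthesis rose at most steps of the pathway. Cholesterol is made from acetyl-CoA through mevalonate, squalene and lanosterol, and in the brain it is made locally, largely by glia, under the control of SREBP2, a factor that binds sterol regulatory elements. Of 30 tested members of the sterol group, 17 were called higher (56.7%) and 3 lower, with a median of 0.26, and DESeq2 called 14 higher and none lower. Hmgcs1, which makes HMG-CoA, was at 1467, 1463 and 1360 CPM in WT NSCs and 2040, 2017 and 2026 CPM in S89G-DMP1 NSCs (0.50 ± 0.05, edgeR adjusted p = 5.81e-14). Lss, which closes the sterol rings, went from 251, 263 and 256 to 409, 414 and 403 CPM (0.67 ± 0.06). All S89G-DMP1 libraries were above all WT libraries in both genes. Mvd (0.65 ± 0.08) and Idi1 (0.57 ± 0.06), which make the isoprenoid units, and Acat2 at the first step (0.61 ± 0.07) rose by similar amounts, and Dhcr7 of the last steps by less (0.25 ± 0.06). The called members that were lower are no enzymes of the pathway. Abca1, which exports cholesterol, was one of them (-0.42 ± 0.10).

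**Figure D5:**
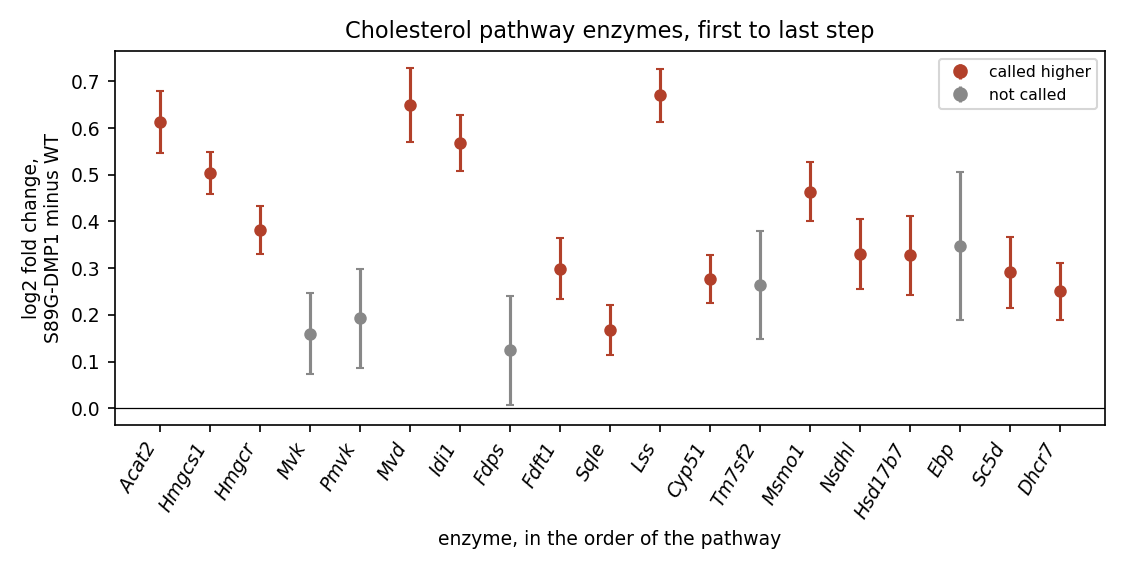
Log2 fold change of S89G-DMP1 over WT with SE (bars) for 19 tested enzymes of the cholesterol pathway, drawn in the order of the reactions from Acat2 to Dhcr7. Red enzymes were called higher, grey ones were not called. All 19 values are above 0, and 14 were called.

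Fatty acid synthesis followed with 12 of 32 tested members called higher and 3 lower and a median of 0.13. Fasn, the fatty acid synthase, went from 1266, 1296 and 1303 CPM in WT to 1793, 1692 and 1638 CPM in S89G-DMP1 NSCs (0.41 ± 0.05). Acsl3, which activates fatty acids for lipid droplets (0.67 ± 0.07), Acss2, which makes cytosolic acetyl-CoA (0.54 ± 0.07), and the elongase Elovl6 (0.34 ± 0.06) rose. The ceramide synthase Cers4 fell in edgeR (-1.14 ± 0.27), though it was not called by DESeq2. A sterol regulatory element with the letters TCACCCCAC was looked for on both strands in the 250 bases before each gene's start, in RefSeq promoters of GRCm38.p6. It was found in 1 of 23 sterol genes with a promoter and 1 of 29 fatty acid genes, beside 0.555% of 27025 genes with a promoter. The fatty acid gene was Acsl1, an acyl-CoA synthetase that was called lower (-0.55 ± 0.19), though not by DESeq2, and the call was kept in 1 of 6 fits with a library left out. The window of Hmgcs1 (chr13:119690174-119690262, plus strand) is shown because its rise was among those of smallest p, with the motif in capitals.
Hmgcs1: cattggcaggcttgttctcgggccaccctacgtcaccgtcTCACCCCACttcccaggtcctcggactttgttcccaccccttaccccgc

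Several genes of amino acid supply, a group with many targets of the stress-induced transcription factor ATF4, rose as well. Of 31 tested, 12 were called higher and 1 lower, with a median of 0.20, and DESeq2 called 8 higher and 1 lower. Mthfd2, a mitochondrial enzyme of one-carbon metabolism, was at 55.2, 57.5 and 67.1 CPM in WT NSCs and 79.2, 77.0 and 97.5 CPM in S89G-DMP1 NSCs (0.50 ± 0.10). The glutamine transporter Slc1a5 (0.67 ± 0.15) and the branched-chain aminotransferase Bcat1 (0.38 ± 0.10) rose, the latter not called by DESeq2. Vldlr, a lipoprotein and reelin receptor, was the member that fell (-0.39 ± 0.08). Among cytosolic tRNA synthetases and their scaffold proteins 10 of 23 were called higher and none lower, with Iars (0.34 ± 0.07) and Lars (0.31 ± 0.07) as examples. DESeq2 called 6 of these 10, and 6 were called without WT library 2. The letters TGATGNAA, the core of the composite element that ATF4 binds with C/EBP factors, were looked for on either strand. They were found in 6 of 26 genes of the ATF4 group with a promoter (23.08%) and 3 of 15 of the synthetase group (20%). Over all genes with a promoter the share was 3.907%. Of the 6 ATF4 genes with these letters 2 were called higher, 3 were not called and Vldlr was called lower, and of the 3 synthetase genes 1 was called higher. The window of Gars, the glycyl-tRNA synthetase gene (chr6:55037931-55038000, plus strand), shows such a match in capitals, here on the reverse strand. Gars was chosen after its values were seen, and it went from 209, 195 and 185 CPM in WT to 248, 225 and 236 CPM in S89G-DMP1 NSCs (0.27 ± 0.06).
Gars: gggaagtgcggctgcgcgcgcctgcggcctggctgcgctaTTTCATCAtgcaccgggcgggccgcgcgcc

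Nucleotide and polyamine synthesis had 12 of 34 tested members called higher and 1, Gmpr, lower, with a median of 0.18. Odc1, which makes putrescine, was at 198, 179 and 172 CPM in WT NSCs and 224, 234 and 236 CPM in S89G-DMP1 NSCs (0.34 ± 0.07). Srm, the spermidine synthase (0.38 ± 0.08), Gart of purine synthesis (0.35 ± 0.08) and Prps1, which makes the ribose donor of nucleotides (0.39 ± 0.09), rose by similar amounts. The ribonucleotide reductase genes Rrm1 and Rrm2 of this group also belong to the cell cycle genes.

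Many genes that process, export and translate RNA rose by small amounts. Of 28 hnRNP genes 10 were called higher, of 59 genes of SR proteins and the core spliceosome 9, of 48 genes of nuclear transport 15 and of 62 genes of ribosome biogenesis 14, and none of these groups had a member called lower. Their medians were between 0.12 and 0.16. Hnrnpab went from 524, 529 and 576 CPM in WT to 706, 710.4 and 665 CPM in S89G-DMP1 NSCs (0.35 ± 0.05), and the importin Ipo5 from 459.8, 464 and 443 to 554, 564 and 575 CPM (0.31 ± 0.05). The groups did not overlap in these genes. The splicing factor Srsf7 (0.31 ± 0.07), the nucleolar helicase Ddx21 (0.41 ± 0.06) and Xpot, the export factor of tRNA (0.30 ± 0.06), moved alike. Translation initiation and elongation factors had 20 of 64 called higher and 3 lower. The poly(A)-binding protein Pabpc4 rose from 80.6 ± 8.20 to 117 ± 8.50 CPM (0.53 ± 0.09). DESeq2 called fewer members higher, 11 translation factors, 9 nuclear transport genes, 5 ribosome biogenesis genes and 6 genes of SR proteins and the spliceosome. With length and GC offsets 15 translation factors were called higher and 1 lower, and 14 hnRNP genes higher. Without S89G-DMP1 library 3 the higher translation factors were 9, the nuclear transport genes 9 and the ribosome biogenesis genes 6, and without S89G-DMP1 library 1 the ribosome biogenesis genes were 8.

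Nuclear-encoded genes of mitochondrial respiration and genes of the proteasome had few calls. Of 87 nuclear-encoded genes of oxidative phosphorylation 1 was called higher and 1 lower, with 0 and 0 in DESeq2, 1 and 5 with length and GC offsets, and up to 3 each way with a library left out. Among 12 mitochondrially encoded genes 3 were called lower and 1 higher. The complex I subunits mt-Nd2 (-0.35 ± 0.05) and mt-Nd3 (-1.11 ± 0.26) fell, and DESeq2 called the first of these only. The proteasome had 2 of 44 called higher, but 0 in DESeq2 and 0 with length and GC offsets, and between 0 and 3 with a library left out. Chaperones had 6 higher and 2 lower of 74, with the mitochondrial chaperonin Hspd1 up (0.35 ± 0.05) and the small heat shock protein Cryab down (-0.75 ± 0.15). The higher chaperones were 4 with length and GC offsets and 2 without S89G-DMP1 library 3. Glycolysis and creatine genes had 3 higher and 7 lower of 36, the latter with Pfkp, the platelet-type phosphofructokinase (-0.56 ± 0.08), and DESeq2 called 3 lower.

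Several lysosomal genes fell. Of 72 tested members 15 were called lower and 1 higher, with a median of -0.12, and DESeq2 called 8 lower and none higher. The asparaginyl protease Lgmn was at 45.9, 47.0 and 47.5 CPM in WT NSCs and 28.6, 33.4 and 28.9 CPM in S89G-DMP1 NSCs (-0.63 ± 0.13). The cathepsin gene Ctsf (-0.68 ± 0.15), the β-mannosidase Manba (-0.79 ± 0.17) and the phospholipase Pla2g15 (-0.92 ± 0.24) fell. The palindrome TCACGTGA, a form of the element bound by TFEB, was found in 6 of 58 lysosomal genes with a promoter (10.34%). Over all genes with a promoter the share was 0.9066%. Of these 6 lysosomal genes 2 were called lower and 4 were not called. In the iron and oxidant group 4 of 34 were called higher and 6 lower. Next to Cp, the ferritin heavy chain Fth1 went from 603, 638 and 664 CPM to 500.0, 543 and 530.2 CPM (-0.28 ± 0.05), while the peroxiredoxin Prdx6 (0.38 ± 0.08) and the secreted glutathione peroxidase Gpx3 (0.76 ± 0.18) rose. DESeq2 called 1 higher and 3 lower, and it called neither Gpx3 nor Pla2g15.

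Several genes of vesicle release and synaptic contacts fell. Of 34 tested vesicle and exocytosis genes 10 were called lower and 1 higher, with a median of -0.19. Besides Syt1 and Rab3b, the vesicle-tethering protein Syn2 fell (-0.45 ± 0.11). Of 55 scaffold and adhesion genes 12 were called lower and 5 higher, with Cntnap4 (-0.82 ± 0.19) and the axon segment protein Nfasc (-0.58 ± 0.14) down and the adhesion proteins Ncam2 (0.69 ± 0.16) and Cadm1 (0.43 ± 0.10) up. Glutamate and GABA receptor genes had 4 called higher and 7 lower of 33. Grm5, the metabotropic receptor mGluR5, was at 295, 270.0 and 293 CPM in WT NSCs and 378, 353 and 365 CPM in S89G-DMP1 NSCs (0.35 ± 0.06), and the GABA-B subunit Gabbr2 fell by 0.71 ± 0.15. DESeq2 called 5 vesicle genes, 8 scaffold genes and 3 receptor genes lower, without Syn2, Cntnap4 and Nfasc. It called 0 vesicle genes, 1 scaffold gene and 2 receptor genes higher, without Ncam2. The lower vesicle genes were 6 without S89G-DMP1 library 1 or 2.

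Calcium signalling genes had 8 of 34 called lower and 1 higher. The calcium pump Atp2b4 went from 28.2, 29.1 and 31.2 to 16.8, 21 and 14.4 CPM (-0.76 ± 0.16), and the kinase Camk1 (-0.86 ± 0.09), the phospholipase Plcd1 (-0.98 ± 0.21) and the phosphodiesterase Pde1c (-0.84 ± 0.20) fell. DESeq2 called 5 lower, without Pde1c. Potassium channels moved both ways, with 6 called higher and 9 lower of 33. Kcna2 and Kcnj10, already named, rose, while Kcnq3 (-1.26 ± 0.15), the leak channel Kcnk2 (-0.90 ± 0.12) and Kcnd2 (-0.54 ± 0.09) fell. Among sodium and calcium channels 6 of 30 were called lower and 1 higher, with the T-type calcium channel Cacna1h at -0.49 ± 0.07, and with length and GC offsets 5 were lower and 3 higher. DESeq2 called 5 potassium channels higher and 5 lower, and 3 sodium and calcium channels lower. Carbonic anhydrases, with 4 tested members, had Car8 and Car3 (1.90 ± 0.29) called higher and 1 member lower.

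Several guidance receptors and ligands fell. Semaphorins signal through plexins and neuropilins to the actin cytoskeleton, and slits through Robo receptors. Of 24 tested semaphorin and plexin genes 9 were called lower and 2 higher, with a median of -0.16. With length and GC offsets 7 were lower and the median was -0.050. Plxnb1 was at 193, 199 and 199 CPM in WT NSCs and 143, 129 and 129.6 CPM in S89G-DMP1 NSCs (-0.56 ± 0.07), and Plxna4 (-1.10 ± 0.14), Sema4g (-0.81 ± 0.18) and Sema4c (-0.48 ± 0.12) fell, whereas the ligand Sema3c and the neuropilin Nrp2 (0.57 ± 0.12), which can bind it, rose. In the slit and netrin group 7 of 24 were called lower, among them Dpysl4, a mediator of growth cone collapse (-0.82 ± 0.15), and the netrin gene Ntn4 (-0.43 ± 0.09), and 1 was called higher. Ephrins and their receptors had 3 of 14 called lower in edgeR, but 0 in DESeq2 and 0 in the fit with length and GC offsets. DESeq2 called 5 semaphorin and plexin genes, without Sema4c, and 4 slit and netrin genes lower, and the latter were also 4 without S89G-DMP1 library 2.

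Cell contacts and the cytoskeleton gave mixed counts. Clustered protocadherins, which give neurons a surface identity, had 4 higher and 4 lower of 30, of which DESeq2 called 0 and 2. Some of them share their last exons within a cluster, so their reads can be assigned to the wrong gene. Cadherins and catenins had 3 higher and 4 lower, with Cdh13 (-0.49 ± 0.07) and Celsr2 (-0.40 ± 0.07), of 25. DESeq2 called 1 of them higher and 4 lower, and the higher ones were between 1 and 3 with a library left out. Myosin and actin regulators had 12 of 51 called lower and 1 higher. The non-muscle myosin Myh14 went from 79.2, 65.7 and 69.9 to 38.8, 44.1 and 40.9 CPM (-0.79 ± 0.11), and Rnd3, a small GTPase that acts on the actin cytoskeleton, fell by 0.56 ± 0.12. Among tubulins, transport kinesins and microtubule proteins 9 of 45 were called lower and 2 higher, with Map1b and Tubb4a (-0.92 ± 0.11) in front, while 4 were lower in DESeq2 and 4 with length and GC offsets.

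Imprinted, clock and immune genes had scattered calls. Of 22 tested imprinted genes 3 were called higher and 5 lower, with Peg3 up (0.33 ± 0.06) and Peg10 (-0.39 ± 0.06) and Nnat (-0.34 ± 0.07) down, and the lower ones were 3 in DESeq2 and 3 without S89G-DMP1 library 2 or WT library 2. Of the clock genes the nuclear receptors Rorb (0.59 ± 0.09) and Rora (-0.84 ± 0.15) moved in opposite directions, and Bhlhe40 rose (0.49 ± 0.09). In the interferon and MHC class I group 1 was called higher, Ifi27 (0.91 ± 0.21), and 1 lower of 23, neither of them by DESeq2. Tnfrsf21 (-0.36 ± 0.06) and the membrane-bound chemokine Cx3cl1 (-0.41 ± 0.08) fell and the LIF receptor Lifr rose (0.35 ± 0.09), though it was not called by DESeq2.

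Several genes that differ between C57BL/6 substrains also differed between the genotypes. Of 12 tested genes on such a list 5 were called higher and 2 lower. Nnt, the mitochondrial transhydrogenase gene that lacks several exons in C57BL/6J, was counted 81, 81 and 75 times in the WT libraries and 149, 149 and 155 times in the S89G-DMP1 libraries (0.98 ± 0.12). Wdfy1 was at 20.2, 21 and 28 CPM in WT NSCs and 57.7, 52.6 and 66.6 CPM in S89G-DMP1 NSCs, and Rab4a at 5.90, 5.44 and 6.39 and 13.1, 17.5 and 12 CPM. DESeq2 called 3 of the 5 higher genes and none of the 2 lower ones. Substrain of the controls and the S89G allele cannot be told apart with 1 group each. Within 5 Mb of Dmp1 on chromosome 5, 53 genes were tested, of which 5 were called higher and 4 lower (17%), close to the 15.8% over all tested genes.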

How the data were processed

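Total RNA of 3 S89G-DMP1 and 3 WT neurosphere NSC samples was sequenced with an Illumina kit of NEB, and groups were taken from the sample labels. Low-quality reads and those with adapter or undetermined sequence were discarded. The submitters' processing notes name HISAT2, StringTie, featureCounts and the build GRCm38 for these samples, whereas the study's methods name TopHat. The series title speaks of retina and does not match the labels or the study, and the labels were followed. The strand setting is not given in the sources used here. The authors deposited a table of raw read counts by gene, used here for the main comparison, and TPM values, which were used only for alternatives because 29 tested genes averaging 50 counts or more are deposited as TPM 0 in all libraries. Of 47729 gene identifiers 505 had no symbol, and 0 columns were left unused. Each library held 2354615 to 2588130 counts, so counting error limits genes with few counts.

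Counts were analysed in R 4.3.3 with edgeR 4.0.16 (filterByExpr, TMM, quasi-likelihood test, genotype alone in the design), limma 3.58.1 and DESeq2 1.42.0, and genes were called at a Benjamini-Hochberg adjusted p of 0.05 over 11194 tested genes. On simulated counts of this comparison with 11194 genes, 93 of 98 genes changed 2-fold, 67 of 100 changed by log2 0.5 and 5 of 10886 unchanged genes were called. A list is described by its counts and median beside those of all tested genes, with no test over the list. The members and the 63 lists were chosen with earlier results of these data known. Named genes are Dmp1, the 12 largest changes each way among genes averaging 50 counts or more in the higher group, the 12 smallest p-values each way, up to 4 called members each way per list averaging 20 counts or more, and marker or check genes. Families of the extracellular matrix, cell cycle and ribosome and unnamed gene models were left out of the ranking. Not every gene the rule allows is reported here, and list members whose call was lost when 1 library was left out are mostly counted but not named.

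Alternatives were DESeq2, RLE factors, scaling by library size, removal of the filter, a minimum of 10 counts in every library, limma on log2(TPM + 1) and log2(TPM + 0.1), omission of 1 library at a time, a block for the replicate number, and an adjusted p of 0.01. Offsets for transcript length and GC content were chosen after seeing the data. Gene positions are from GENCODE for GRCm38 and promoter sequences from RefSeq.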

Additional observations from a re-analysis of the deposited data

How the results depend on the processing

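DESeq2 called 321 genes higher and 424 lower, limma on log2(TPM + 1) 37 and 73, limma on log2(TPM + 0.1) 46 and 82, and an adjusted p of 0.01 left 456 and 641. The cause of the lower DESeq2 and limma counts was not tested. Leaving out each library in turn gave between 571 and 733 genes higher and between 770 and 926 lower. With the replicate number as a block 829 were higher and 1016 lower. The number was not used as a pairing because S89G-DMP1 and WT libraries of the same number deviated from their group means with correlations of 0.04, 0.02 and -0.01 over 10127 genes. RLE factors, scaling by library size, removal of the filter, a minimum of 10 counts in every library and the length and GC offsets kept both counts within 1.5 times, and the offsets, chosen after seeing the data, moved the split from 792 higher and 981 lower to 838 and 872. No genes called by the main test changed sign under the count-based alternatives. Under the TPM alternatives 93 of the called genes changed sign with a pseudocount of 1 and 95 with 0.1, and of 168 named called genes 141 and 137 were no longer called. Among the named genes Zbtb20 changed sign, to -0.079 with a pseudocount of 1 and -0.083 with 0.1.

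The design has 3 libraries per genotype with between 2354615 and 2588130 counts each, which limits weakly expressed genes such as Dmp1, Aqp4 and Gfap. Batches, littermate status and substrain are not given by the labels and cannot be told apart from genotype. Named genes were selected partly by their calls with 1 library left out, so their persistence under that alternative says nothing more about stability.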

Other observations

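Outside the families left aside, 458 called genes belonged to a described group (232 higher, 226 lower) and 1150 to none, of which 436 were higher and 714 lower. Called genes were spread over the genome. On the autosomes the share of tested genes called was between 13% on chromosome 19 and 19.3% on chromosome 1, and on the X chromosome it was 16.4%. By annotation 765 protein-coding genes were higher and 962 lower of 10810 tested, and 8 long intergenic non-coding RNAs were higher and 5 lower of 93.

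Gap and tight junction genes had 2 members called higher and 1 lower of 12 tested, with Gja1 as the higher member named above. Non-clustered protocadherins had 2 higher and 1 lower of 9, and DESeq2 called 0 of them. Chemokine, complement and cytokine receptor genes had 3 higher and 2 lower of 15, and clock genes 2 higher and 3 lower of 20. DESeq2 called 0 higher and 2 lower in the first group and 2 higher and 1 lower in the second. The lower clock genes were 1 or 2 with a library left out.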
